A study of Mus musculus with 16 samples.

Results

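Haus8, Maob, Unc5b, Vdac3 and Efnb3 are 5 protein-coding genes of the 55573 genes in the count table. They were chosen by measured values: their counts differed between the 2 vectors in pressure-overloaded hearts and they belong to no larger gene family treated in this series. The difference between vectors after surgery, which chose them, is therefore given as a description with no test. All 5 were among the 16857 genes that passed the expression filter, and each had at least 142 reads in every mouse. The hearts came from 16 male mice in 4 groups of 4. Pups were injected under the skin on postnatal day 1 with an adeno-associated virus of serotype 9 (AAV9) carrying either green fluorescent protein (GFP) or Cardinal, so that every mouse, sham controls included, received a virus. A chicken cardiac troponin T promoter, which is active in cardiomyocytes, drove the transgene. Cardinal is the mouse long noncoding RNA gene Gm12295. As adults of 25 to 30 g the mice had either transverse aortic constriction (TAC), a band around the aorta that raises the load on the left ventricle, or a sham operation. RNA was taken 4 weeks later from the apex, which holds all cell types of the heart wall. The 4 groups are named by virus and surgery, AAV9-GFP sham and TAC and AAV9-Cardinal sham and TAC.

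The 5 genes have unrelated roles. Unc5b encodes a receptor for the guidance protein netrin-1 that is best known from growing axons and blood vessels, and Efnb3 encodes ephrin-B3, a membrane-bound ligand of Eph receptors through which neighbouring cells signal in both directions. Maob encodes monoamine oxidase B, an enzyme of the outer mitochondrial membrane that breaks down monoamines and releases hydrogen peroxide. Vdac3 encodes a voltage-dependent anion channel, a pore of the same membrane for metabolites and ions. Haus8 encodes a subunit of the augmin complex, which recruits gamma-tubulin to the sides of existing microtubules so that new ones branch off, a process best known from the mitotic spindle.

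In GRCm38 all 5 genes lie on the minus strand. Haus8 (ENSMUSG00000035439) covers chromosome 8 from 71248561 to 71272934, and Vdac3 (ENSMUSG00000008892) covers the same chromosome from 22577075 to 22593813. Maob (ENSMUSG00000040147) lies on chromosome X from 16709282 to 16817366, Unc5b (ENSMUSG00000020099) on chromosome 10 from 60762593 to 60831581, and Efnb3 (ENSMUSG00000003934) on chromosome 11 from 69554092 to 69560205. Maob and Efnb3 share no exonic base with another annotated gene and none of their 50-base stretches with another gene's transcripts. Haus8 shares 116 exonic bases, 2.20% of its exons, with Myo9b on the opposite strand. Whether the counting used strand is not given in the sources used here, so reads from those bases cannot be told apart. Unc5b shares 0.224% of its 50-base stretches with other genes.

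Vdac3 is the exception, since 12.8% of its 50-base stretches also occur in another gene, mostly the pseudogene Vdac3-ps1 on chromosome 13. Over the 849 coding bases of Vdac3 the pseudogene differed at 4 bases, an identity of 99.5%, and 638 of the 800 aligned 50-base stretches, as long as a read of this study, were identical. The pair is printed over the stretch where they differ most, exon 6 of Vdac3 at chr8:22580446-22580495 (minus strand) and the pseudogene at chr13:18031149-18031198 (minus strand), with the 2 differing bases in capitals.
Vdac3: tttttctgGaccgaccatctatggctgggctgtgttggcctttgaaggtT
Vdac3-ps1: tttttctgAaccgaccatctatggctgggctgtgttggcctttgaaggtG
A read from most of the coding sequence could thus have been counted for either gene, and the values of Vdac3 are uncertain to that extent.

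Haus8 and Unc5b were the 2 genes with more reads after TAC in GFP hearts, and both have a promoter entry in the RefSeq table (GRCm38.p6). An entry runs from 250 bases before to 50 after the start used in that table. They are printed because the other 3 genes have no entry in that table. The direction that the 2 genes share rests on TAC mice used in the choice, and nothing is read from it. Capitals mark the GC box GGGCGG on either strand, the binding motif of Sp1-type factors. The first is chr8:71272541-71272840 and the second chr10:60831532-60831831, both on the minus strand. The Haus8 window lies wholly inside the span given above for the gene, which reaches 71272934. The start used for Haus8 is therefore downstream of that end, whereas the Unc5b window spans the end given above, 60831581.
Haus8: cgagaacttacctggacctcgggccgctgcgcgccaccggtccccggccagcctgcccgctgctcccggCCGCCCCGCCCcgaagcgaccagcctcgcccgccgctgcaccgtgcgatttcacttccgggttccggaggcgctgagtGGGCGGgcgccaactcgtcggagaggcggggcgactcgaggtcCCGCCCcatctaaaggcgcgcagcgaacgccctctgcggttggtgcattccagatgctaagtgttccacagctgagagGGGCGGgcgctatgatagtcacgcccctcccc
Unc5b: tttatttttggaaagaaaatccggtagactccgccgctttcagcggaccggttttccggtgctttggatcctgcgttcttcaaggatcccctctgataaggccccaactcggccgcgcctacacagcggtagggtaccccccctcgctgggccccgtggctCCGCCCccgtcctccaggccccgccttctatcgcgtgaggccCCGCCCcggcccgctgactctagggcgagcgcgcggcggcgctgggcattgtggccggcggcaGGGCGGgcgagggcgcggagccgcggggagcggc
The GC box occurred 5 times in the Haus8 promoter, with 2 matches overlapping by 1 base in a single run of capitals, and 3 times in that of Unc5b. At least 1 match is present in 35.7% of the 32851 promoters of the table. The E-box CANNTG, searched on both strands like the rest, had 2 matches in Haus8 and 0 in Unc5b (72.3% of all promoters). The M-CAT motif CATTCC, the binding motif of TEAD factors, had 1 match in Haus8 and 0 in Unc5b (14.7% of all promoters). The NFAT core GGAAA had 0 matches in Haus8 and 2 in Unc5b (61.3% of all promoters), and CCAAT had none in either (37.4% of all promoters). No motif but the GC box was found in both promoters, and these letter matches are not sites of measured binding.

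Libraries held 16441997 to 21904589 counts, with a median of 21723766, and mitochondrially encoded genes took 30.3 to 34.0% of them. Counts are given as CPM, counts scaled to a common library size and corrected by the trimmed mean of M-values, a scaling that sets most genes equal between mice, and 3 reads correspond to 0.126 to 0.195 CPM. Gm12295, where reads of the vector and of the mouse's own gene are counted together, stood at 3.42 to 7.24 CPM in the 8 GFP mice and at 18.3 to 93.9 CPM in the 8 Cardinal mice. AAV9-Cardinal TAC replicate 1 was apart from the rest of its group, at 93.9 CPM against 18.3, 19.5 and 20.6 CPM. Results resting on that group are given with and without this mouse. The cardiomyocyte list (Myh6, Tnnt2, Tnni3, Actn2, Ryr2, Ttn, Myl2 and Pln) was detected in every mouse, at a summed level of 30928 CPM or more.

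Unc5b had more reads in GFP hearts after TAC and not in Cardinal hearts. In AAV9-GFP sham mice it was at 12.9, 11.5, 9.55 and 10.9 CPM, and in AAV9-GFP TAC mice at 24.3, 23.0, 17.8 and 22.1 CPM. In AAV9-Cardinal sham mice it was at 13.3, 13.7, 10.2 and 10.2 CPM, and in AAV9-Cardinal TAC mice at 14.6, 10.2, 11.4 and 13.8 CPM. The 4 AAV9-GFP TAC mice were above all other 12 mice, whose groups overlapped each other. After TAC its mean ± SD over 4 mice was 21.8 ± 2.83 CPM under GFP and 12.5 ± 2.03 CPM under Cardinal. The fitted log2 fold change of Cardinal against GFP in TAC hearts was −0.80 (SE 0.14), 0.574 times the GFP level.

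Haus8, at a lower level, was also highest in AAV9-GFP TAC mice. It was at 7.90, 8.64, 8.87 and 8.51 CPM in AAV9-GFP sham mice and at 12.99, 17.7, 14.5 and 13.7 CPM in AAV9-GFP TAC mice. It was at 7.27, 8.32, 7.54 and 9.21 CPM in AAV9-Cardinal sham mice and at 9.60, 9.21, 9.96 and 9.76 CPM in AAV9-Cardinal TAC mice. All AAV9-GFP TAC mice were again above every other mouse, and the lowest AAV9-Cardinal TAC mouse lay just under the highest AAV9-Cardinal sham mouse. The means after TAC were 14.7 ± 2.09 CPM under GFP and 9.63 ± 0.319 CPM under Cardinal (SD over 4 mice each), which gave a log2 fold change of −0.61 (SE 0.093) or 0.655 times.

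Efnb3 was in the opposite direction. Its 4 values were 65.1, 62.4, 66.6 and 64.5 CPM in AAV9-GFP sham and 39.9, 25.0, 35.5 and 29.05 CPM in AAV9-GFP TAC mice. Under Cardinal they were 56.7, 56.7, 57.9 and 61.6 CPM in sham and 43.1, 49.8, 56.3 and 53.2 CPM in TAC mice. Every TAC mouse was thus below every sham mouse of its own vector, and every AAV9-Cardinal TAC mouse was above every AAV9-GFP TAC mouse. The means after TAC were 32.4 ± 6.66 CPM under GFP and 50.6 ± 5.68 CPM under Cardinal (SD over 4 mice each), which gave a log2 fold change of 0.64 (SE 0.11) or 1.56 times.

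Maob, the enzyme, had fewer reads after TAC under both vectors. It was at 60.5, 52.4, 58.7 and 59.7 CPM in AAV9-GFP sham and at 29.8, 28.9, 29.1 and 26.2 CPM in AAV9-GFP TAC mice. It was at 51.1, 59.3, 54.9 and 54.4 CPM in AAV9-Cardinal sham and at 33.4, 44.3, 44.1 and 39.9 CPM in AAV9-Cardinal TAC mice. The 2 sham groups overlapped, while each TAC group was apart from its sham group and from the other TAC group. The means after TAC were 28.5 ± 1.60 CPM under GFP and 40.4 ± 5.11 CPM under Cardinal (SD over 4 mice each), which gave a log2 fold change of 0.50 (SE 0.083) or 1.42 times.

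Vdac3, the most abundant of the 5 per library and per kilobase of exon in every group, showed the smallest difference in proportion and the smallest spread. Its values were 127, 123, 124 and 130 CPM in AAV9-GFP sham and 102, 99.8, 102 and 103 CPM in AAV9-GFP TAC mice. They were 123, 123, 127 and 128 CPM in AAV9-Cardinal sham and 114, 123, 117 and 116 CPM in AAV9-Cardinal TAC mice. The highest AAV9-Cardinal TAC mouse, at 122.6 CPM, was just under the lowest AAV9-Cardinal sham mouse, at 122.8 CPM. The means after TAC were 102 ± 1.32 CPM under GFP and 117 ± 3.59 CPM under Cardinal (SD over 4 mice each), which gave a log2 fold change of 0.21 (SE 0.035) or 1.15 times.

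**Figure D1:**
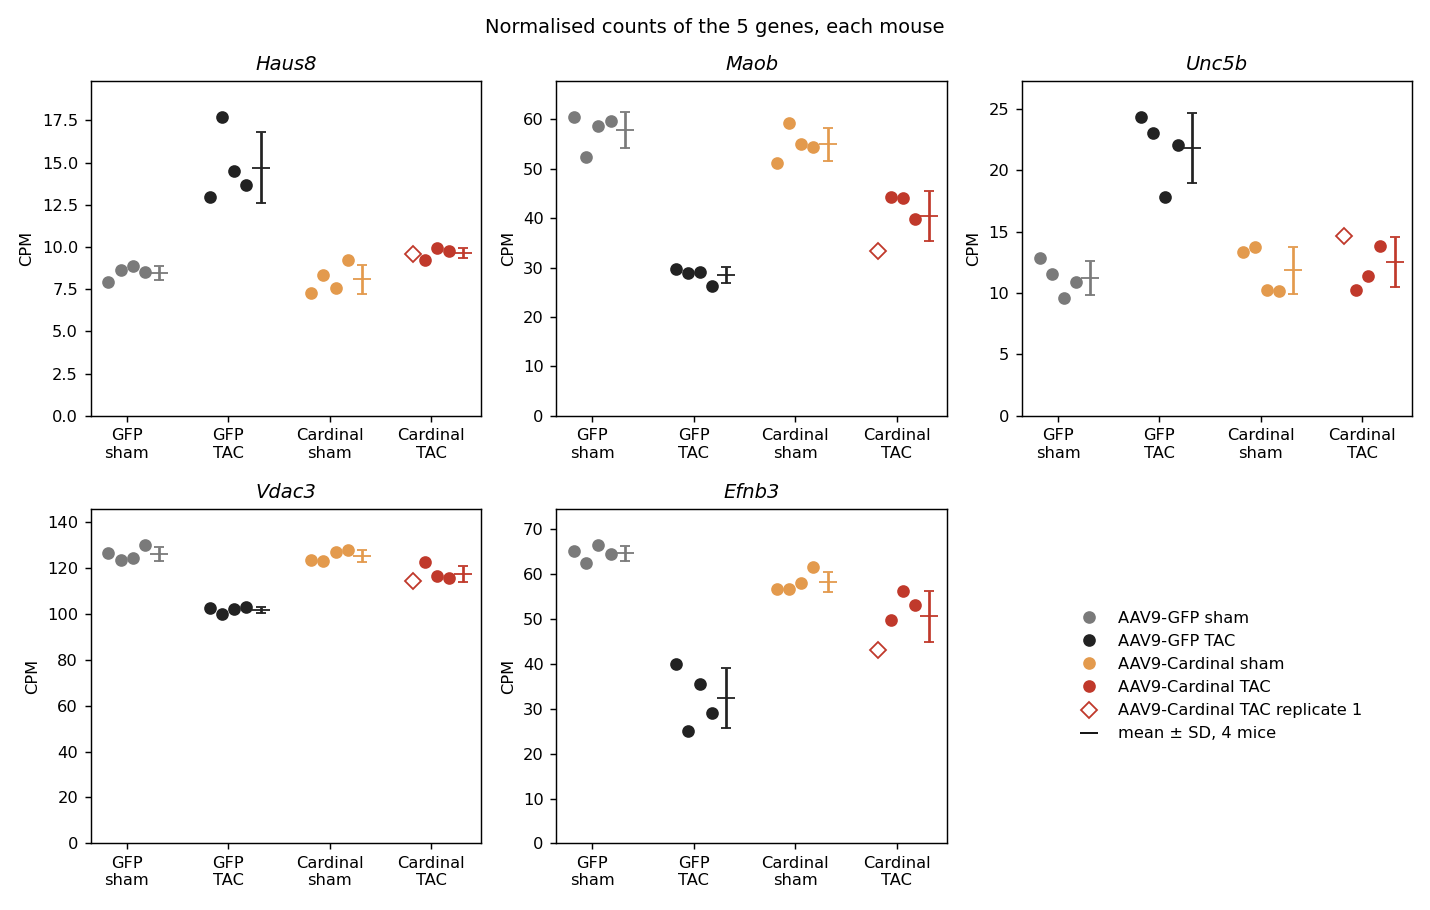
Normalised counts (CPM, vertical axes from 0) of the 5 genes in each of the 16 mice, by group; the bar beside each group is the mean ± SD of 4 mice, and the open diamond is AAV9-Cardinal TAC replicate 1. The AAV9-GFP TAC mice do not overlap the AAV9-Cardinal TAC mice for any of the 5 genes, which were chosen for a difference between these groups.

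The 5 genes were 5 of 17 called between the vectors in TAC hearts at an adjusted p of 0.05, which was 0.101% of all tested genes, and nothing is read from that count. The member nearest the threshold was Efnb3, with an adjusted p of 0.0448 in edgeR's quasi-likelihood test. The last gene inside it was Dagla, at 0.0467, and the first outside was Cpxm2, at 0.0503. Between the TAC groups 5 of 5 members did not overlap, against 6.77% of all tested genes; this is the contrast of the choice, and nothing is read from it. With each of the 16 mice left out in turn, all 5 genes were called in 3 cases, 1 to 4 of them in 5 cases and none in 8 cases. The 3 mice without which all 5 stayed called were AAV9-GFP TAC replicates 1 and 4 and AAV9-Cardinal TAC replicate 1. Without the last of these, 535 genes were called, 3.13% of those tested. Of 8 other settings, DESeq2, upper quartile scaling, a robust spread and leaving out mitochondrially encoded genes each kept all 5 called, an offset for GC content, chosen after seeing the data, kept 4, and keeping genes of low counts, adding the replicate number to the fit or fitting only the 8 TAC mice each left 0. In the fit with the replicate number, AAV9-Cardinal TAC replicates 5 and 6 and AAV9-GFP TAC replicate 7 have no mouse of the same number. They add nothing to the difference there. The fitted log2 fold changes over the 16 cases ran from −0.67 to −0.51 for Haus8, from −0.88 to −0.72 for Unc5b, from 0.46 to 0.59 for Maob, from 0.19 to 0.22 for Vdac3 and from 0.54 to 0.76 for Efnb3.

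Without AAV9-Cardinal TAC replicate 1 the difference between vectors in TAC hearts was larger for 4 genes and nearly the same for Haus8. It was 0.59 (SE 0.068) for Maob, −0.88 (SE 0.14) for Unc5b, 0.22 (SE 0.037) for Vdac3, 0.72 (SE 0.11) for Efnb3 and −0.61 (SE 0.10) for Haus8, all as log2 fold changes. This mouse, with the most Gm12295 reads, had the lowest Maob, Vdac3 and Efnb3 and the highest Unc5b of its group, that is, the value nearest to the AAV9-GFP TAC mice for these 4 genes. For Haus8 it lay within its group.

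TAC changed all 5 genes when both vectors were weighed equally. In this comparison the difference between vectors that chose the genes cancels, fully only with equal numbers and equal spread in both TAC groups. The choice and this comparison also use the same estimate of the spread between mice. The SDs of the TAC groups differed, at 2.09 CPM under GFP and 0.319 CPM under Cardinal for Haus8. For Maob they were 1.60 and 5.11 CPM. The tests below are therefore not wholly free of the choice. Haus8 and Unc5b rose and Maob, Vdac3 and Efnb3 fell in edgeR's quasi-likelihood test with Benjamini-Hochberg adjustment over all genes. Haus8 rose by a log2 fold change of 0.53 (SE 0.067, adjusted p = 6.4e-05) and Unc5b by 0.52 (SE 0.098, adjusted p = 0.0014). Maob changed by −0.73 (SE 0.058, adjusted p = 1.4e-06), Efnb3 by −0.60 (SE 0.080, adjusted p = 9.0e-05) and Vdac3 by −0.20 (SE 0.025, adjusted p = 4.4e-05). These are 2 of 5 members higher, where 11.3% of all tested genes were, and 3 of 5 lower, where 11.8% were. Two-sided exact permutation tests that exchanged TAC and sham labels within each vector (4900 labelings) gave p = 0.00041, the smallest these can give, for Maob, Vdac3 and Efnb3, 0.00082 for Haus8 and 0.0082 for Unc5b. Without AAV9-Cardinal TAC replicate 1, all 5 were still called with the same signs, beside 23.3% of all genes in either direction. The TAC groups then held 4 and 3 mice, so the cancelling was not exact.

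The values of the 2 vectors behind that mean were unequal. In GFP hearts the log2 fold change of TAC against sham was 0.96 (SE 0.14) for Unc5b, 0.79 (SE 0.094) for Haus8, −1.02 (SE 0.083) for Maob, −0.998 (SE 0.11) for Efnb3 and −0.31 (SE 0.035) for Vdac3. In Cardinal hearts it was 0.073 (SE 0.14) for Unc5b, 0.26 (SE 0.096) for Haus8, −0.44 (SE 0.082) for Maob, −0.20 (SE 0.11) for Efnb3 and −0.093 (SE 0.035) for Vdac3. Every value had the same sign under both vectors and was smaller in size under Cardinal. As a share of the value in GFP hearts it was 7.65% for Unc5b, 20.2% for Efnb3, 29.9% for Vdac3, 32.4% for Haus8 and 43.5% for Maob. These values share the TAC mice that chose the genes and are descriptions with no test. By edgeR's test 17.4% of all tested genes were called with TAC in GFP hearts and 6.48% in Cardinal hearts. How many of all genes had the same sign and a smaller size under Cardinal was not counted.

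**Figure D2:**
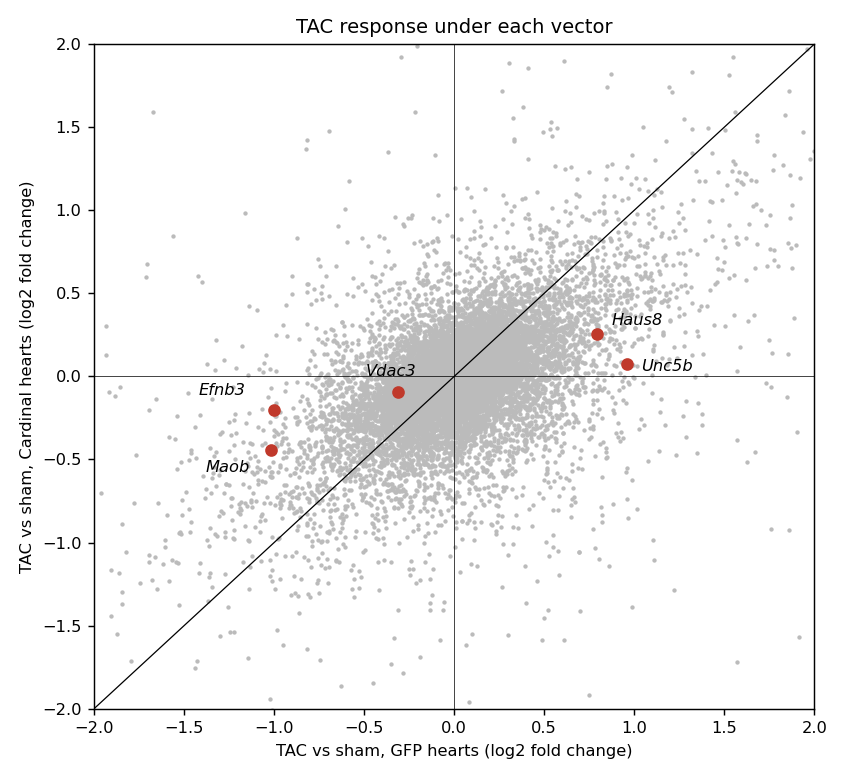
Log2 fold change of TAC against sham in Cardinal hearts (vertical axis) over that in GFP hearts (horizontal axis) for 16696 genes in grey and the 5 genes in red; 161 genes lie outside the axes, and the diagonal marks equal values. All 5 genes, which were chosen for a difference between the vectors in TAC hearts, lie between the horizontal axis and the diagonal.

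Leaving out AAV9-Cardinal TAC replicate 1 lowered that share for 4 genes. It was −0.65% for Unc5b, whose log2 fold change in Cardinal hearts became −0.0063 (SE 0.15), 12.9% for Efnb3, 25.4% for Vdac3 and 35.3% for Maob. For Haus8 it was 32.9%. By single mice, TAC and sham did not overlap in GFP hearts for 5 of 5 genes (20.3% of all tested genes) and in Cardinal hearts for 3 of 5, Maob, Vdac3 and Efnb3, with TAC lower (13.7% of all tested genes). The difference between the vectors' responses, which holds the contrast of the choice, was −0.89 (SE 0.20) for Unc5b, −0.54 (SE 0.13) for Haus8, 0.58 (SE 0.12) for Maob, 0.22 (SE 0.049) for Vdac3 and 0.80 (SE 0.16) for Efnb3 on the log2 scale.

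**Figure D3:**
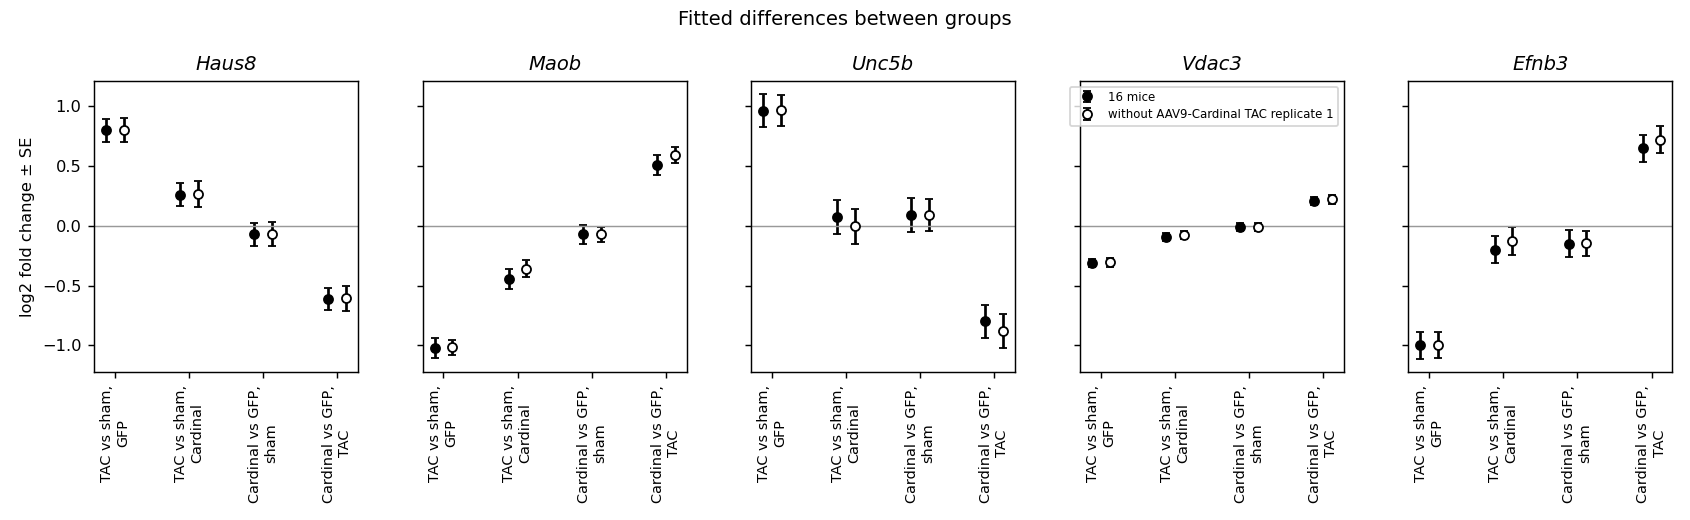
Fitted log2 fold changes with their SE (vertical axis) for 4 comparisons of groups, per gene, from all 16 mice (filled) and without AAV9-Cardinal TAC replicate 1 (open). The 2 vectors lie close to 0 apart in sham hearts and away from 0 in TAC hearts, with opposite signs to the TAC response in GFP hearts. The difference in TAC hearts chose these genes. It shares the AAV9-GFP TAC mice with that response, so nothing is read from its size or sign.

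In sham hearts no difference between the vectors passed the test for any of the 5 genes. The means compared hold none of the TAC mice, whereas the spread in edgeR's and DESeq2's tests is estimated from all 16; the exact permutation tests use the 8 sham mice alone. By edgeR's quasi-likelihood test 0 of 5 were called, beside 0.0119% of all tested genes, and 0 had an unadjusted p under 0.05, beside 2.59%. DESeq2 called 0 of the 5 and 5 genes in all. The log2 fold change of Cardinal against GFP was −0.073 (95% interval −0.28 to 0.13) for Haus8, −0.073 (−0.25 to 0.10) for Maob, 0.086 (−0.21 to 0.39) for Unc5b and −0.011 (−0.085 to 0.063) for Vdac3. For Efnb3 it was −0.15 (−0.39 to 0.087). The 4 AAV9-Cardinal sham mice, at 56.7 to 61.6 CPM, were all below the 4 AAV9-GFP sham mice, at 62.4 to 66.6 CPM, so Efnb3 was 1 of 5 members that did not overlap, against 2.36% of all tested genes. A two-sided exact permutation test gave p = 0.029 for Efnb3, the smallest that 4 mice against 4 allow, while its adjusted p in edgeR's test over all genes was 1. The sign was opposite to that in TAC hearts. The exact p was 0.37 for Haus8, 0.31 for Maob, 0.63 for Unc5b and 0.66 for Vdac3.

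Markers of cell types differed between the same groups. Fewer cells of a type and less RNA per cell cannot be told apart in these bulk samples. The summed level of the 8 cardiomyocyte markers was 42468 to 43420 CPM in AAV9-GFP sham, 30928 to 37272 CPM in AAV9-GFP TAC, 40607 to 44942 CPM in AAV9-Cardinal sham mice and 37549 to 41702 CPM in those of AAV9-Cardinal TAC. The 2 TAC groups thus narrowly did not overlap, at 37272 against 37549 CPM, in the order seen for Maob, Vdac3 and Efnb3. The 8 fibroblast markers summed to 519 to 588, 904 to 1169, 505 to 564 and 530 to 990 CPM in the same order of groups, and the TAC groups overlapped. By edgeR's test of TAC over both vectors, 4 of 8 cardiomyocyte markers fell and 1 rose, and 5 of 8 fibroblast markers rose. Of all tested genes 11.8% fell and 11.3% rose in that test. Between vectors in TAC hearts edgeR called 0 of the 16. An unadjusted p under 0.05 was found for 6 of 8 in each list, beside 15.0% of all tested genes. DESeq2, which called 447 genes in all there, called 5 of 8 cardiomyocyte markers higher and 3 fibroblast markers lower under Cardinal. The 8 endothelial markers summed to 516 to 626 CPM in AAV9-GFP sham and 602 to 723 CPM in AAV9-GFP TAC mice. Under Cardinal they summed to 542 to 568 CPM in sham and 570 to 696 CPM in TAC mice. With TAC over both vectors edgeR called 4 of the 8 higher and 0 lower, and DESeq2 called 5 higher. Between vectors in TAC hearts both called 0. The Schwann cell and neuron list, with Th at 0 in every mouse, summed to 12.1 to 14.3 CPM in AAV9-GFP TAC mice. In AAV9-Cardinal TAC mice it summed to 11.6 to 13.8 CPM. That sum holds genes of both directions: with TAC over both vectors 1 of its 5 tested genes rose and 2 fell, and between vectors in TAC hearts their log2 fold changes ran from −0.49 to 1.14, with 0 called and 2 of 5 at an unadjusted p under 0.05. The mural and macrophage lists had 3 of 8 each at an unadjusted p under 0.05 there and 0 called by edgeR, while DESeq2 called 1 mural gene, Abcc9. The 8 mural markers summed to 891 to 957 CPM in AAV9-GFP TAC and 852 to 947 CPM in AAV9-Cardinal TAC mice, and the 8 macrophage markers to 188 to 243 and 172 to 233 CPM. The lymphocyte list, with 1 of 8 genes tested, summed to 1.71 to 1.96 CPM in AAV9-GFP TAC mice. In AAV9-Cardinal TAC mice it summed to 0.929 to 1.70 CPM, narrowly without overlap. The erythroid list overlapped, at 437 to 1041 and 348 to 803 CPM. The part of these levels in the differences of the 5 genes was not tested.

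Of 13 tested relatives of the 5 genes 3 were called with TAC over both vectors, close to the 23.1% of all tested genes. Of the other augmin subunits, Haus1 to Haus7, TAC over both vectors lowered only Haus2, by a log2 fold change of −0.20 (SE 0.067, adjusted p = 0.043 in edgeR's test), a call that DESeq2 did not make. The others ranged from −0.069 (SE 0.15) for Haus4 to 0.17 (SE 0.10) for Haus7. In AAV9-GFP TAC hearts Haus8 was at 2.79 CPM per kilobase of exon, and in AAV9-GFP sham hearts at 1.61, where Haus2 was at 3.43 and Haus7 at 1.44. Myo9b, the antisense neighbour of Haus8, rose with TAC by 0.28 on the log2 scale (SE 0.064, adjusted p = 0.0048 in edgeR's test) and was at −0.16 (SE 0.090, adjusted p = 0.43) between vectors in TAC hearts. Haus5 shares 56.5% of its exonic bases with Gm21982 and is uncertain. Between the vectors in TAC hearts 0 of the 7 were called by edgeR, DESeq2 called none of those it gave an adjusted p, Haus1 alone had an unadjusted p under 0.05, and their log2 fold changes ran from −0.18 (SE 0.085) for Haus1 to 0.055 (SE 0.13) for Haus3.

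Maoa, the other monoamine oxidase, was much scarcer than Maob, at 0.609 against 20.7 CPM per kilobase in AAV9-GFP sham hearts. Its mean was 2.54 ± 0.356 CPM in AAV9-GFP sham, 3.58 ± 0.156 in AAV9-GFP TAC, 2.75 ± 0.576 in AAV9-Cardinal sham and 2.79 ± 0.631 in AAV9-Cardinal TAC mice (SD, n = 4 each). Its log2 fold change with TAC, 0.25 (SE 0.11, adjusted p = 0.13 in edgeR's test), and that of Cardinal against GFP in TAC hearts, −0.36 (SE 0.16, adjusted p = 0.30), had signs opposite to those of Maob, and neither passed the test. Of the other netrin receptors of the family, Unc5a was at 1.67 to 2.07 CPM in the group means with a log2 fold change of 0.012 (SE 0.16) after TAC, Unc5c did not exceed 0.316 CPM in any mouse, and Unc5d was at 0 in all but 1 mouse.

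Vdac1 fell with TAC, as Vdac3 did, and Vdac2 did not pass the test. Vdac1, at 200.8 CPM per kilobase in AAV9-GFP sham hearts against 23.3 for Vdac3, fell by 0.19 on the log2 scale after TAC (SE 0.033, adjusted p = 7.6e-04 in edgeR's test). The length used was that of all annotated exons, 2620 bases for Vdac1 and 5420 for Vdac3. Before scaling by length the means in those hearts were 526 and 126 CPM. The difference of Vdac1 between vectors in TAC hearts was 0.16 (SE 0.046, adjusted p = 0.12), which edgeR did not call and DESeq2 did. For Vdac2 the 2 values were −0.039 (SE 0.026, adjusted p = 0.32) and 0.041 (SE 0.037, adjusted p = 0.67). Vdac3-ps1 followed Vdac3 closely, with group means of 26.3, 21.2, 25.6 and 24.8 CPM in sham and TAC hearts under GFP and then in sham and TAC hearts under Cardinal, a log2 fold change with TAC of −0.18 (SE 0.032) and one of Cardinal against GFP in TAC hearts of 0.22 (SE 0.045). Given the shared coding sequence, these are not values independent of Vdac3.

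Of the other B-type ephrins, Efnb2 changed with TAC in the direction opposite to Efnb3. It rose by 0.42 on the log2 scale (SE 0.080, adjusted p = 0.0013 in edgeR's test), and Efnb1 was at 0.22 (SE 0.083, adjusted p = 0.068). Between vectors in TAC hearts Efnb2 was at −0.23 (SE 0.11, adjusted p = 0.34) and Efnb1 at 0.013 (SE 0.12, adjusted p = 0.98). Efnb3 was the most abundant of the 3, at 20.3 CPM per kilobase in AAV9-GFP sham hearts against 3.80 for Efnb1 and 2.102 for Efnb2, and it stayed so in AAV9-GFP TAC hearts at 10.2 against 4.65 and 3.06.

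**Figure D4:**
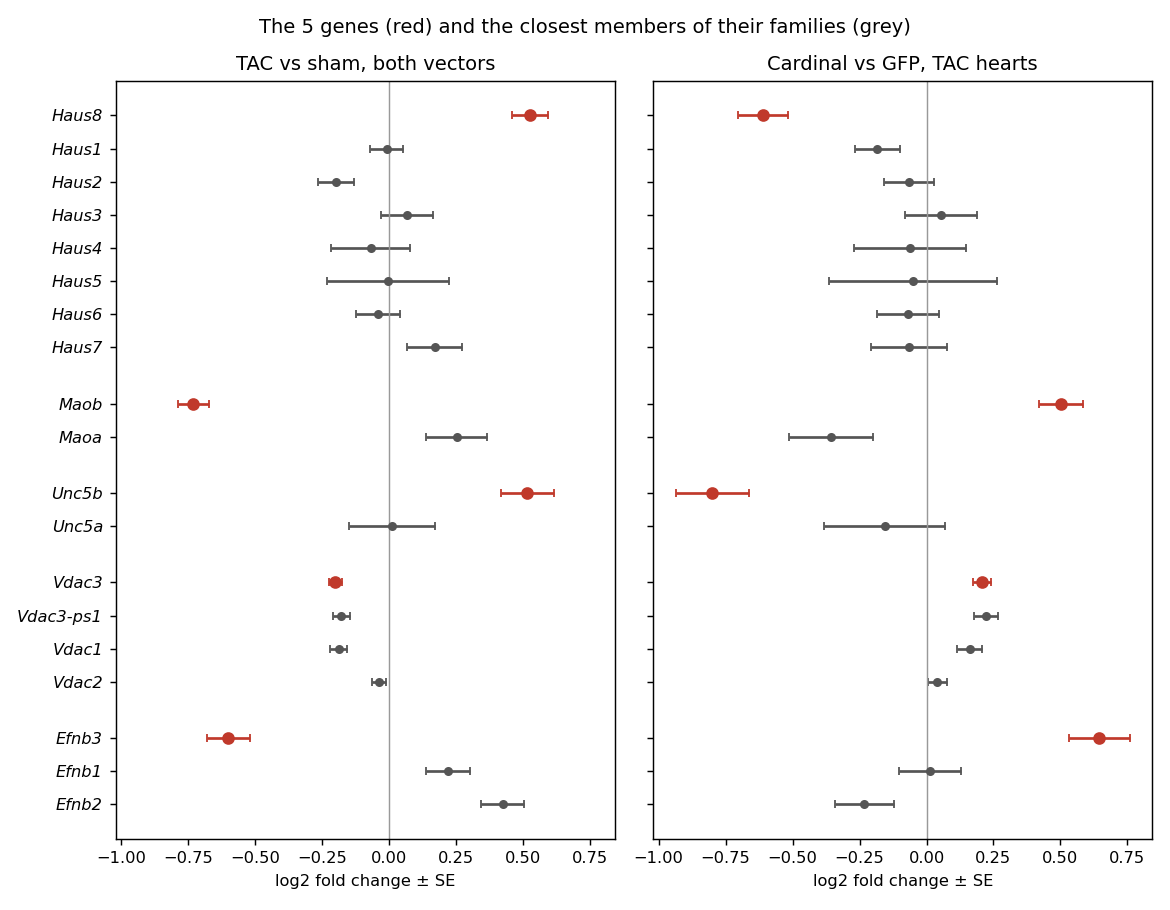
Log2 fold changes with their SE (horizontal axes) of the 5 genes in red and their expressed relatives in grey, for TAC against sham over both vectors on the left and Cardinal against GFP in TAC hearts on the right. Haus8, Maob, Unc5b and Efnb3 lie to one side of their relatives on both panels, and Vdac3 lies beside Vdac1 and Vdac3-ps1; the values of the red points on the right chose these genes.

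Between 2 and 7 genes of each wider pathway of the 5 genes were called with TAC over both vectors, where 23.1% of all tested genes were. Each list leaves out the member itself, and calls are by edgeR's quasi-likelihood test over all genes. In the netrin list 11 of 18 genes were tested, and 2 fell: Neo1, a netrin and repulsive guidance molecule receptor, at −0.54 (SE 0.078, adjusted p = 1.6e-04), and Dapk1, a kinase bound by UNC5 receptors, at −0.28 (SE 0.075, adjusted p = 0.014). The median was −0.040, against 0.0042 over all tested genes. Of the ephrins and Eph receptors 13 of 21 were tested, with 2 higher and 2 lower and a median of −0.030. Those called were Efnb2, the receptor Ephb4 at 0.16 (SE 0.049, adjusted p = 0.028), and the receptors Epha4 at −0.57 (SE 0.10, adjusted p = 0.0011) and Epha7 at −0.58 (SE 0.17, adjusted p = 0.020).

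Of the genes for breakdown and uptake of monoamines 9 of 13 were tested, and 4 fell with none higher, for a median of −0.11. They were Slc22a3, an extraneuronal monoamine transporter, at −0.96 (SE 0.14, adjusted p = 1.6e-04), Dbh, the enzyme that makes noradrenaline, at −0.79 (SE 0.16, adjusted p = 0.0019), Aldh2, the mitochondrial aldehyde dehydrogenase that acts on products of monoamine oxidase, at −0.45 (SE 0.051, adjusted p = 2.6e-05), and Slc18a2, the vesicular monoamine transporter, at −0.40 (SE 0.086, adjusted p = 0.013). Dbh and Slc18a2 rested on few reads, with group means of 0.505 to 0.986 CPM for Dbh and 1.11 to 1.81 CPM for Slc18a2. The lowest count of a mouse was 9 reads for Dbh and 23 for Slc18a2. Th, the first enzyme of catecholamine synthesis, was at 0 in every mouse. Of the 19 partners of VDAC all were tested, with 3 higher and 4 lower and a median of −0.039. Tspo, an outer membrane protein, was at 0.46 (SE 0.093, adjusted p = 0.0021), the pore-forming Bak1 at 0.36 (SE 0.059, adjusted p = 5.0e-04), the adenine nucleotide carrier Slc25a5 at 0.28 (SE 0.041, adjusted p = 2.0e-04) and the calcium channel Itpr1 at −0.28 (SE 0.066, adjusted p = 0.0068). Of the 19 genes of augmin and microtubule nucleation, all tested, 1 rose and 4 fell, for a median of −0.062. Besides Haus2 these included the gamma-tubulin complex genes Tubgcp4 at 0.32 (SE 0.11, adjusted p = 0.044) and Tubgcp2 at −0.24 (SE 0.056, adjusted p = 0.0067) and their partner Mzt2 at −0.21 (SE 0.072, adjusted p = 0.048), a call that DESeq2 did not make, and Mzt1, another partner, at −0.15 (SE 0.038, adjusted p = 0.0079). DESeq2 also did not call Slc18a2.

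Between vectors none of the listed genes other than the members was called by edgeR, in TAC or in sham hearts. In TAC hearts an unadjusted p under 0.05 was found for 5 of 9 monoamine genes, 6 of 19 VDAC partners, 2 of 11 netrin genes, 2 of 19 augmin genes and 1 of 13 ephrin genes, beside 15.0% of all tested genes, and DESeq2 called Aldh2, Vdac1 and Hspa9, all higher under Cardinal. The median log2 fold changes were 0.25, 0.041, 0.011, −0.062 and −0.096 in the same order, against −0.0065 over all tested genes. In sham hearts 1 monoamine gene and 1 augmin gene had an unadjusted p under 0.05, beside 2.59% of all tested genes, the other 3 lists had 0, and DESeq2 called 0 in every list.

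The genes whose CPM followed each member most closely over the 16 mice were ranked by Pearson's r among the 14292 genes that averaged 1 CPM or more. The values are descriptions, since the mice share groups. For Vdac3 they were its pseudogene (r = 0.97), Cs, the citrate synthase of the mitochondrial matrix (r = 0.96), and Hrc, a calcium-binding protein of the sarcoplasmic reticulum (r = 0.96). For Efnb3 they were Mdh1, the cytosolic malate dehydrogenase (r = 0.96), Atp2a2, the calcium pump of the sarcoplasmic reticulum (r = 0.95), and Vdac3-ps1 (r = 0.95). For Maob they were Pcp4l1 (r = 0.97), Gm15163 (r = 0.97) and Etfb, a subunit of the electron transfer flavoprotein (r = 0.96). For Haus8 they were Gm16385 (r = 0.94), Des, the intermediate filament protein of muscle (r = 0.93), and Dio2, a deiodinase that activates thyroid hormone (r = 0.93). For Unc5b they were the cadherin Dchs1 (r = 0.92), Shisa4 (r = 0.92) and the transcription factor Tcf3 (r = 0.91).

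Within groups these likenesses were weaker. After subtracting each group's mean, r was between 0.59 and 0.85 for the 15 pairs of a member and a gene of like pattern. Among the 5 members themselves r over the 16 mice was 0.81 between Haus8 and Unc5b, 0.92 to 0.95 among Maob, Vdac3 and Efnb3, and −0.93 to −0.85 between the 2 sets. Within groups it was −0.18 between Haus8 and Unc5b, 0.29 to 0.47 among Maob, Vdac3 and Efnb3, and −0.55 to 0.075 between the sets. The 5 genes were chosen for a difference between the 2 TAC groups, and the genes of like pattern for their r over the 16 mice. High r over the 16 mice is thus in part made by the choice, and nothing is read from it.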

How the data were processed

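Poly(A) RNA of 16 heart apexes was sequenced by the submitters as single reads of 50 bases. Their processing notes name FastQC, HISAT2 2.1.0, edgeR 3.26.1 and GRCm38; the counting program and its use of strand and of reads matching several genes are not given in the sources used here. The deposited values are raw read counts per gene, made by the authors with no normalization. GENCODE M21 gave symbols and positions for 55394 of 55573 genes. Counts were analysed with edgeR 4.0.16 (R 4.3.3): TMM scaling, filterByExpr, 1 group term fitted by quasi-likelihood to the 16 mice, and Benjamini-Hochberg adjustment over 16857 tested genes at a threshold of 0.05, tested on simulated data. Exact permutation tests used log2 CPM with a prior count of 2. Alternatives were DESeq2 1.42.0, upper quartile scaling, no filter, a robust spread, no mitochondrially encoded genes, the replicate number in the fit, only the 8 mice compared and each mouse left out. The 5 genes and the gene lists were chosen with earlier results of these data known. Genes named are the 5, their closest relatives, up to 4 called genes per list with the largest change, genes overlapping a member and 3 genes of like pattern each; Hspa9, Mzt1 and Abcc9 were named after their values were seen. The floor of 3 reads covers counting error only. Nothing in the labels says that libraries share an animal.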

Additional observations from a re-analysis of the deposited data

Results flagged for a closer look

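In 20 sets of 4 mice, the 5 genes in each group, Dixon's test found 0 mice beyond its 95% critical value, where chance alone gives about 1.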

How the results depend on the processing

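For the 5 genes 230 values were recomputed under other settings and 480 with 1 mouse left out, and 225 and 479 of them kept their direction and their side of the threshold or moved by less than the spread between mice. The TAC changes over both vectors stayed called for all 5 genes under all 7 settings and in all 16 fits with a mouse left out. Leaving out AAV9-GFP sham replicate 4 turned the sign of Vdac3 between vectors in sham hearts, whose log2 fold change ranged from −0.021 to 0.0044 over the left-out mice. An offset for GC content, added after seeing the data, moved Vdac3 between vectors in TAC hearts to 0.15 and its difference in response to 0.17; only 7.61% of tested genes have a lower GC content than Vdac3. Counts of called genes depended on the setting. Between vectors in sham hearts the count was 2, 5 by DESeq2, and 1 to 3 with a mouse left out. Between vectors in TAC hearts it was 17, 447 by DESeq2, 31 by upper quartile scaling, 30 without mitochondrially encoded genes, 3 without the filter, 3 with only the 8 TAC mice, and 0 to 535 with a mouse left out (0 to 79 where AAV9-Cardinal TAC replicate 1 was kept); the cause was not tested. For TAC over both vectors it was 3888, and 3340 to 4222 with a mouse left out.

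The labels give no reason for shared replicate numbers. Deviations of same-numbered mice correlated at −0.040 to 0.21 over 11 pairs (median 0.066) and those of other pairs at −0.19 to 0.22 (median −0.019). All 4 pairs of number 1 were above 0.1 and the other 7 were not. Whether the mice numbered 1, among them AAV9-Cardinal TAC replicate 1, share something was not tested. The main fit did not take the numbers as pairs. With the replicate block the counts were 1 between vectors in sham hearts, 0 in TAC hearts and 2019 for TAC over both vectors, where all 5 genes stayed called. In that fit Efnb3 was at 0.42 between vectors in TAC hearts, at −0.40 for TAC in Cardinal hearts and at 0.58 for the difference in response. Numbers 5 and 6 occur only in AAV9-Cardinal TAC and number 7 only in AAV9-GFP TAC mice, so their block terms take up these mice. The AAV9-Cardinal TAC level in that fit rests on replicates 1 and 4, at 43.1 and 49.8 CPM for Efnb3. Replicates 5 and 6 were at 56.3 and 53.2 CPM. Groups of 4 limit the precision: in sham hearts the intervals allow differences of up to 0.39 on the log2 scale for Unc5b and Efnb3.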
